A study of Mus musculus with 4 samples.

Results

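The 10 genes described here are transcription factors that act in early lineages other than the pluripotent epiblast. They are Cdx2, Elf5, Gata3, Tfap2a and Hand1, grouped as a trophectoderm list, and Gata4, Gata6, Sox17, Sox7 and Foxa2, grouped as an endoderm list. The genes were chosen by symbol, and all 10 were found among the 32285 genes measured. They were followed in single-cell transcriptomes of mouse embryonic stem cells (mESC), the cultured counterpart of the epiblast.

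In the blastocyst, Cdx2 and Gata3 set up the trophectoderm, the outer layer that forms the placenta, while Gata6, Gata4, Sox17 and Sox7 act in the primitive endoderm, which forms the yolk sac. Elf5 maintains trophoblast stem cells, Hand1 is needed for trophoblast giant cells, and Tfap2a acts in trophoblast and in surface ectoderm. Foxa2 marks visceral and definitive endoderm, the node and the anterior streak. Pluripotent cells hold these genes at very low levels, and each of them is used again in other tissues of the later embryo, so a single gene does not define a lineage.

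The study compared E14tg2a.4 cells, a male mESC line (WT), with Srrm2 hKO cells, a heterozygous line that carries a gene-trap insertion in exon 1 of the splicing factor gene Srrm2 and derives from 1 clone. Both lines were grown without serum and with LIF before collection, and each group had 2 samples from independent experiments. The deposited matrix pools the 4 libraries, numbered 1 to 4 in the barcodes. No source used here says which number is WT and which is Srrm2 hKO, so results are given by number, no test between the lines was possible, and a difference between libraries is one between single cultures without replicate error.

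With the study's cell filter applied anew from its description, 31989 of 41142 barcodes were kept, 7464 to 8514 per library. This is somewhat more than the study reports, so the kept cells are not exactly the study's. They had a median of 18378 to 21898 unique molecular identifiers (UMIs, each counting 1 captured transcript) per cell. The cells had the markers of the labelled type, since a list of 10 naive pluripotency genes reached 931 to 1930 UMIs per 1000000 UMIs (CPM) in every library. Srrm2 itself stood at 387, 533, 238 and 356 CPM in libraries 1 to 4 and was not used to assign them. Of the kept barcodes, 105 sequences occurred in more than 1 library, and cells with such barcodes held 33 of the 2582 UMIs of the 10 genes. Levels below are CPM over the kept cells of a library, and ranges in parentheses are exact 95% intervals that cover counting error only.

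In the mm10 annotation, Cdx2 lies at chr5:147300805-147307270, Gata3 at chr2:9857078-9890034, Elf5 at chr2:103411688-103450989 and Foxa2 at chr2:148042877-148046969. Tfap2a lies at chr13:40715302-40738376, Hand1 at chr11:57828705-57832818 and Sox17 at chr1:4490931-4497354. Gata4 at chr14:63198922-63271692 and Sox7 at chr14:63943673-63950732 share a chromosome. The counts join the reads of all exons of a gene. Gata3, Tfap2a, Gata6 and Sox17 overlap annotated noncoding genes, for Gata3 also 1 on the same strand (9230102O04Rik), and reads in such stretches could be assigned to either gene.

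The GATA factors among the 10 bind a short DNA sequence, and RefSeq promoter windows of GRCm38.p6, from 250 bases before to 50 after a transcript start, were at hand for 5 of the 10 genes (Cdx2, Elf5, Gata3, Tfap2a and Foxa2). They were searched on both strands for the letters AGATAA and for the same letters with T in the first place, G in the last, or both. A match occurred in 1 window of each of the following 3 genes, and 30 bases around it are shown on the strand of the gene with the matched letters in capitals.
Gata3, chr2:9878551-9878580, minus strand, match 36 bases after the start: ctgcctggcgccgtctTGATAGtttcagaa
Elf5, chr2:103411868-103411897, plus strand, match 218 bases before the start: taaccctctggcTGATAGctggccattgtg
Foxa2, chr2:148045630-148045659, minus strand, match 183 bases before the start: ctgttagccttgAGATAAtattaactttgt
Such letters occurred in 29.8% of all 32851 promoter windows, so the matches describe these windows and no binding was measured.

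Among the trophectoderm regulators, Gata3 differed most clearly between libraries, whereas Tfap2a was nearly level. Gata3 had 50, 63, 390 and 170 counts in libraries 1 to 4, which is 0.300, 0.315, 2.26 and 0.977 CPM. Libraries 3 and 4 lay above libraries 1 and 2 without overlap of their intervals, and library 3 exceeded library 1 7.55-fold (5.61 to 10.3). Cells with a Gata3 UMI numbered 39, 58, 284 and 122.

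Tfap2a had the most counts of the 10 genes and the smallest range, with 147, 215, 197 and 222 counts in libraries 1 to 4. Its level ran from 0.881 CPM (0.744 to 1.04) in library 1 to 1.28 CPM (1.11 to 1.45) in library 4, a 1.45-fold difference (1.17 to 1.80). Libraries 2, 3 and 4 did not differ beyond their counting intervals. UMIs of Tfap2a were found in 144, 211, 188 and 192 cells.

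Hand1 followed the order of Gata3 at a lower level, with 10, 25, 74 and 74 counts and 10, 21, 46 and 50 cells. Libraries 3 and 4 were indistinguishable at 0.429 and 0.425 CPM, and library 3 was 7.16-fold (3.68 to 15.5) above library 1. Cdx2, at the top of the trophectoderm programme, had only 2 counts in library 1 against 43, 41 and 64 in libraries 2, 3 and 4, in 2, 25, 30 and 41 cells. The ratio of library 4 to library 1 was 30.7, with a counting interval from 8.15 to 259 because library 1 had so few counts, and library 4 also lay above libraries 2 and 3 in the pairwise intervals.

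Elf5 was close to absent. It had 1, 5, 1 and 9 counts, each in a cell of its own, and its level of 0.00580 to 0.0517 CPM was the only one of the 10 to come under the level of 3 counts (0.0150 to 0.0180 CPM) in more than 1 library. For scale, 5 genes of tissues not grown here (Umod, Hbb-bs, Prm1, Alb and Ins2) had between 0 and 3 counts over all kept cells, and Elf5 had 16. A further 4 such genes, Gfap, Cd3e, Myh6 and Pomc, had 126 to 3615 counts, as many as the regulators or more, so these genes gave no uniform level of stray RNA and no class of these cells is known to lack the regulators.

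Among the endoderm regulators, Gata6 and Sox17 were highest in library 3, Sox7 was highest in library 1, and Gata4 varied least. Gata6, which starts the primitive endoderm programme, had 34, 20, 95 and 52 counts in libraries 1 to 4, in 33, 17, 80 and 36 cells. Library 3 stood above each of the others, and its 0.551 CPM was 5.52-fold (3.38 to 9.43) the 0.0999 CPM of library 2. Sox17, which sustains endoderm identity, had 14, 8, 71 and 37 counts in 14, 8, 36 and 17 cells. Library 3 was again highest and library 2 lowest for Sox17, with 0.412 and 0.0400 CPM and a ratio of 10.3 (4.96 to 24.8).

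Sox7, a relative of Sox17 with roles in primitive endoderm and blood vessels, ran the other way, with 69, 32, 31 and 14 counts in 67, 32, 31 and 14 cells. Library 1 exceeded each other library, and library 4 was lower than each, with a ratio of 5.14 (2.87 to 9.89) between them. No other member was highest in library 1, and 6 of the 10 were lowest there. Gata4 had 30, 40, 55 and 57 counts in 30, 40, 54 and 54 cells, and its 1.82-fold range (1.15 to 2.94) split libraries 1 and 2 from libraries 3 and 4. Foxa2 had 8 counts in library 1 and 37, 38 and 37 in the others, in 7, 33, 24 and 27 cells. Libraries 2, 3 and 4 did not differ in Foxa2 beyond counting error, and library 3 was 4.60-fold (2.11 to 11.4) above library 1.

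**Figure D1:**
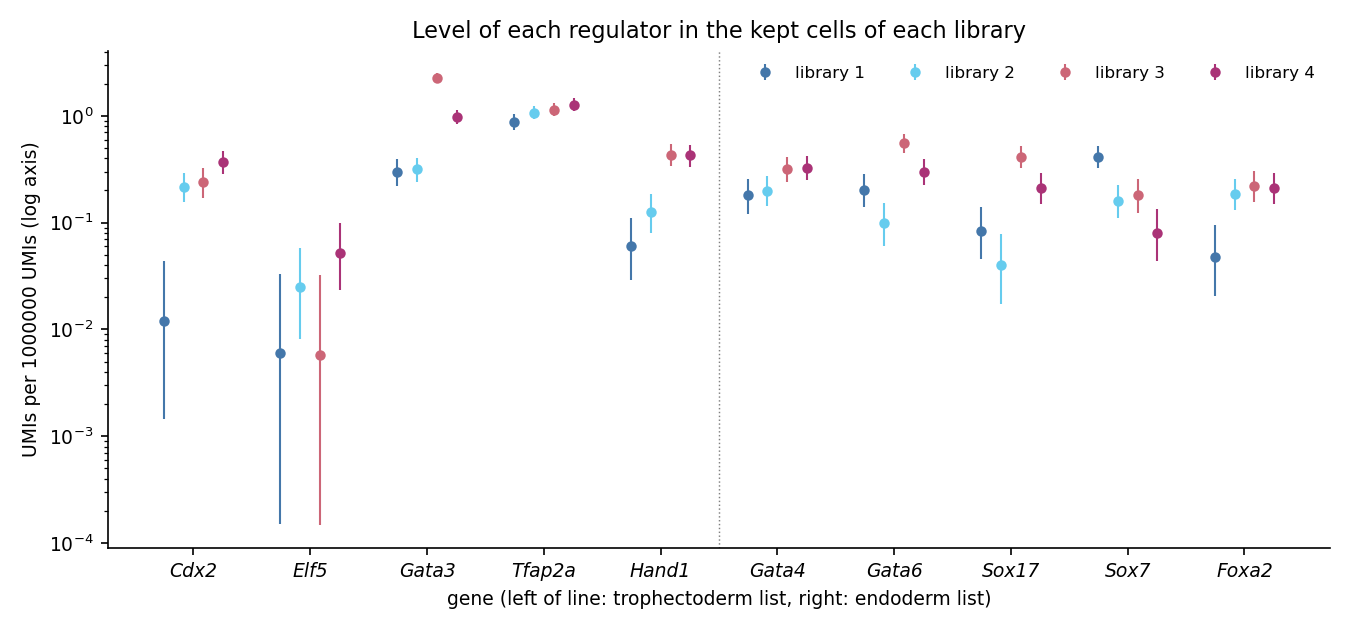
Level of the 10 regulators in UMIs per 1000000 UMIs (log axis) in the kept cells of libraries 1 to 4, with exact 95% Poisson intervals. Gata3 stands at 2.26 in library 3 against 0.300 in library 1, Tfap2a is nearly level across libraries, and Sox7 is highest in library 1 (0.414) and lowest in library 4 (0.0804).

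A 2-fold distance between the highest and the lowest library was not particular to these genes. It was reached by 7 of the 9 members with at least 50 counts, all but Tfap2a and Gata4. Of all 17034 genes with at least 50 counts it was reached by 34.3%, but of the 4979 genes with no more counts than the highest member it was reached by 66.5%. The median range was 5.52-fold for the 9 members, 1.62-fold for all genes and 2.57-fold for genes of such low counts. Markers of another cell state moved with these levels, since a list of 7 keratin and contractile genes (Krt8, Krt18, Krt19, Acta2, Acta1, Tagln and Cnn1) stood at 74.3, 54.1, 972 and 310 CPM in libraries 1 to 4. Libraries 3 and 4 were the higher ones in that list as in Gata3 and Hand1, and levels within keratin-rich cells are given further on.

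Of the 31989 kept cells, 1901 (5.94%) had a UMI of any of the 10 genes, and the genes fell into those scattered as single UMIs and those concentrated in few cells. Gata4 and Sox7 were scattered. Gata4 was seen in 178 cells where its UMIs, spread at random by each cell's depth, would touch 181, and Sox7 was seen in 144 where 146 would be touched. Only 3.85% of Gata4 UMIs and 2.74% of Sox7 UMIs lay in cells with at least 2 of them, and no cell had more than 3 of Gata4 or 2 of Sox7. Tfap2a was nearly as even, with 735 cells observed and 770 at an even spread, although library 4 had 22.5% of its Tfap2a UMIs in cells with at least 2 against 3.72% to 9.14% in the other libraries.

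The remaining genes other than Elf5 were concentrated. Sox17 was found in 75 cells against 129 at an even spread, and 50% of its UMIs lay in 10 cells with at least 2. Cdx2 was found in 98 cells against 149, with 46.7% of its UMIs in 18 cells. Hand1 had 44.3% of its UMIs in 25 such cells, Gata3 had 41.3% in 108, Foxa2 had 33.3% in 11 and Gata6 had 25.9% in 17. For each of these 6 genes an even spread by depth predicted fewer than 1 cell with at least 2 UMIs, except Gata3 with 13.6. The highest count in 1 cell was 14 for Foxa2, 13 for Cdx2, 11 for Sox17, 9 for Gata3 and Gata6 and 7 for Hand1. When each cell was thinned to 5000 UMIs, 103 cells still had a Gata3 UMI and 172 a Tfap2a UMI, and the other 8 genes were seen in 3 to 43 cells.

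**Figure D2:**
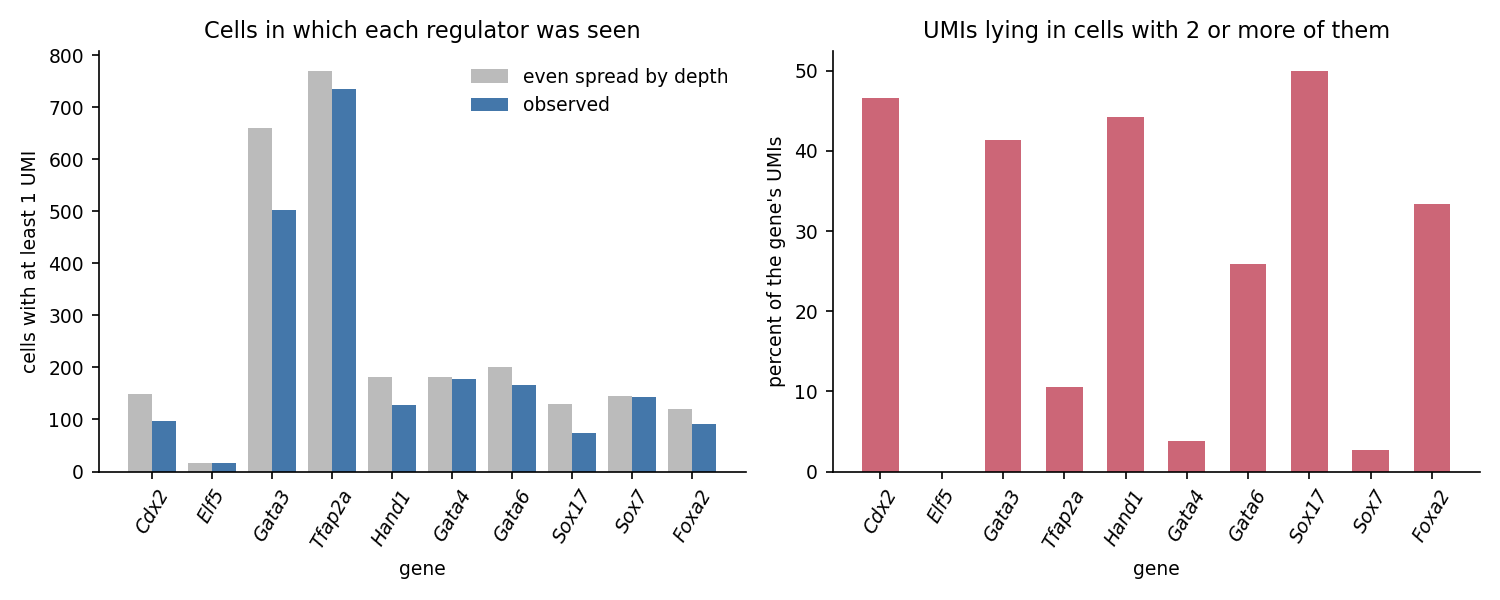
Left, number of kept cells with at least 1 UMI of each gene (blue) beside the number that the same UMIs would reach if spread by cell depth (grey). Right, percent of each gene's UMIs that lie in cells with 2 or more of them, from 0 for Elf5 and 2.74 for Sox7 to 50 for Sox17.

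Regulators of the same list were also seen in the same cells. At least 2 of the 10 genes were detected in 190 cells, of which 154 had 2, 31 had 3, 4 had 4 and 1 had 5. Meetings were counted pair by pair, so that a cell with 3 genes entered as 3 pairs. The 10 pairs within the endoderm list gave 36 meetings in 20 cells, 6.81 times the 5.29 given by the product of their shares in each library, and each pair met more often than its product. Gata6 and Sox17 met in 8 cells (product 0.520), Gata6 and Foxa2 in 8 (0.468) and Sox17 and Foxa2 in 4 (0.214), all of these last in library 4. Gata4 met Sox7 in 5 cells and Gata6 in 3.

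Pairs within the trophectoderm list gave 122 meetings in 91 cells, 5.21 times the product of 23.4. Gata3 met Tfap2a in 55 cells (product 12.0), Hand1 in 21 (2.66) and Cdx2 in 17 (1.93), and Cdx2 met Hand1 in 6 cells, all in library 4. Elf5 met only Gata3, in 1 cell. Pairs across the lists gave 123 meetings in 99 cells, 3.80 times the product of 32.4, led by Gata3 with Gata6 in 26 cells and Gata3 with Sox17 in 15, of which 14 were in library 3. Deep cells hold more UMIs of every gene, and products weighted by cell depth were 9.29 for the endoderm pairs, 42.8 for the trophectoderm pairs and 57.0 across lists, each below the number of meetings observed.

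Cells with at least 3 UMIs of a list from at least 2 of its genes were taken as cells that gather it. For the trophectoderm list there were 48 such cells, 1, 2, 19 and 26 in libraries 1 to 4, or 0.150% of kept cells (0.111 to 0.199%). They held 12.5% of the list's UMIs and 0.243% of all UMIs. The share was uneven across libraries, from 1.90% and 1.99% of the list's UMIs in libraries 1 and 2 to 11.0% in library 3 and 25.4% in library 4. These cells were deep, with a median 1.78 times the median UMIs of their library, 16 of them over 2 times that median and 9 below it. Their depth can come from large cells or from barcodes that hold more than 1 cell, which was not tested, and 32 of the 48 remained when cells over 2 times the median were left out.

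The strongest of the 48 was a library 4 cell with 10 UMIs of Cdx2, 7 of Hand1, 2 of Tfap2a and 1 of Gata3 among 60487 UMIs. The next, also in library 4 and of ordinary depth (22175 UMIs), had 11 of Cdx2 and 3 of Tfap2a. A library 3 cell had 9 of Gata3, 2 of Tfap2a and 1 of Cdx2 together with 2 of Gata6 and 1 of Foxa2, and it was the cell in which 5 of the 10 genes were seen. Gata3 was detected in 43 of the 48, Tfap2a in 35, Cdx2 in 18, Hand1 in 15 and Elf5 in 0.

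The genes that were not used to choose these cells showed high keratins and mostly low pluripotency factors. The keratin and contractile list stood at 8159 CPM in the 48 cells, 15.0-fold (14.8 to 15.3) over the other cells of the same libraries, and all 7 of its genes were at least 2-fold higher. Across all genes with at least 20 counts in the 48 cells, 13.6% were at least 2-fold higher. A gene scarce elsewhere reaches 20 counts only by being high in these cells, so numbers of genes past 2-fold are descriptions here and no separate support. A list of 12 trophoblast genes without members was 3.05-fold higher (2.80 to 3.32), with 3 of the 4 genes that had enough counts past 2-fold. Krt7, a keratin of trophoblast and other simple epithelia, stood at 115 CPM, 25.8-fold higher (22.4 to 29.7), while Id2 was 2.94-fold and Tead4, the factor upstream of Cdx2, 2.39-fold higher. Krt7 alone gave 200 of the list's 535 counts in the 48 cells, against 4.46 of its 101 CPM elsewhere. The fourth gene, the trophoblast factor Tfap2c, stood lower than elsewhere, at 0.605 (0.408 to 0.864). The primitive and visceral endoderm list of 23 genes was 1.40-fold higher (1.34 to 1.46) in the same cells, with 5 of its 8 genes of enough counts past 2-fold (Sparc, Col4a1, Col4a2, Lrp2 and Cited1). Col4a2 stood at 10.5-fold and Cited1 at 10.4-fold, whereas Apoe, which stem cells also express and which supplied most of the list's UMIs elsewhere, was at 0.380. Without Apoe the list was 3.80-fold higher (3.63 to 3.98). The amnion and mesoderm list was 2.30-fold higher (1.99 to 2.64), led by Msx2 at 24.3-fold and Msx1 at 10.6-fold. Without Bmp4, its most abundant gene, it was 4.54-fold higher (3.72 to 5.49). The surface ectoderm and neural crest list stood at 1.13 (0.857 to 1.45). Without Foxd3 that list stood at 5.22 (3.90 to 6.85), with 39 of the 52 counts left being of Krt14. The trophoblast list without its most abundant gene, Id2, stood at 3.12 (2.79 to 3.48).

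The naive list stood at 0.386 of the level in the other cells (0.360 to 0.414) and the formative list at 0.553 (0.523 to 0.585), and 0 of the 6 genes of either list with at least 20 counts were 2-fold higher. Among the naive genes Klf4 stood at 0.175, Klf2 at 0.197 and Zfp42 at 0.245 of the level elsewhere, and the core factors Sox2 and Pou5f1 at 0.319 and 0.518. Going the other way, Klf5 of the naive list stood at 1.24 (1.12 to 1.37) and Pou3f1 of the formative list at 1.88 (1.69 to 2.08). The direction of the definitive endoderm and streak list depended on 1 gene. The whole list was at 0.441 (0.364 to 0.528), but Trh, at 0.214, made up 143 of its 153 CPM elsewhere, and without Trh the other 9 genes were 3.62-fold higher (2.79 to 4.62). T (brachyury, a mesoderm factor) was 18.7-fold higher from 40 counts in only 7 cells, and Eomes, a factor of trophoblast and streak, 3.22-fold (1.66 to 5.63) from 12 counts in 8 cells. The two-cell-like list had 0 counts in the 48 cells, where its level elsewhere predicted fewer counts than the 3 that a count of 0 allows. The genes with the largest fold in the 48 cells were the cytokine Il24 (62.4-fold within libraries), the basal keratin Krt14 (57.1-fold), Ccdc80, Cxcl10, 3830417A13Rik, the chemokine Ccl20, Mal, Sprr2a3, Msx2 and S100a4, each in 4 to 18 of the 48 cells.

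The endoderm list gathered in 8 cells, 0, 1, 3 and 4 in libraries 1 to 4, and these held 8.86% of its UMIs. None in the 8118 cells of library 1 allows, at a limit of 3 cells, a share of up to 0.0370%. The counts were highest in 3 cells of library 4. The first had 9 UMIs of Gata6, 8 of Sox17, 3 of Gata4 and 3 of Foxa2, the second 7 of Gata6, 8 of Sox17, 3 of Foxa2 and 1 of Sox7, and the third 7 of Sox17, 2 of Gata6 and 1 of Foxa2. These cells were of ordinary depth, at 1.06, 0.911 and 0.953 times the library median, and held 27.9% of the endoderm UMIs of library 4 together with 1 weaker cell. The mitochondrial share of the first was 0.0308%, against 2.41% and 2.13% in the others.

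The same 3 cells carried the extracellular matrix genes of primitive and parietal endoderm, which were not used to choose them. A list of 23 primitive and visceral endoderm genes gave 574, 304 and 371 UMIs in these cells, in the same order. Sparc, a matrix protein, gave 294, 102 and 134 of these, or 12920, 5224 and 6558 CPM, where library 4 without its gathering cells had 100.3 CPM. Col4a1 and Col4a2, the chains of basement membrane collagen, gave 59, 38 and 102 UMIs and 56, 19 and 42 UMIs. Laminin Lama1 gave 39, 10 and 12 UMIs and the proteoglycan Srgn 31, 12 and 23, while Pdgfra and Dab2, early markers of the lineage, gave 2, 4 and 3 and 1, 3 and 7. The visceral endoderm receptor genes Amn, Cubn and Lrp2 were at 0 in all 3 cells, as was Thbd. Of the other genes of the list, Fst gave 8, 55 and 3 UMIs and Plat 6, 1 and 3. Apoe gave 31, 2 and 1 UMIs, or 1362, 102 and 48.9 CPM, against 308 CPM in library 4 without its gathering cells. The visceral endoderm genes Ttr, Afp and Hnf4a were seen as single UMIs or pairs. Ttr gave 2 UMIs in the first cell, the only ones of the data, Afp gave 1 in the first and 2 in the third, and Hnf4a gave 1 in the second. Pou5f1 was at 0 in the first and the third cell and at 2 UMIs in the second, and the naive list gave 3, 5 and 6 UMIs.

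Another cell, in library 2, had only 2 UMIs of Foxa2 and 1 each of Gata4, Gata6 and Hand1 but 274 UMIs of the primitive and visceral endoderm list, with 103 of Sparc, 42 of Col4a1 and 25 of Srgn. It also kept 8 UMIs of Pou5f1 and 30 of the formative list, and had 1.72 times its library's median UMIs. The 3 cells of library 3 and the last of library 4 differed from these. They had 3 or 4 UMIs of the endoderm regulators, 39 to 83 of the primitive and visceral endoderm list and 90 to 2033 of the keratin and contractile list. In library 3, 1 of them was among the 48 cells above, 1 had 2 UMIs of Tfap2a and 1 had 2 of Gata3. The library 4 cell had none of the trophectoderm list. Over the 3 cells of library 3 the primitive and visceral endoderm list stood at 1501 CPM (1307 to 1715) against 1316 in the other cells of that library. Apoe made up 992 CPM of the latter, and without it the 3 cells stood at 1348 against 325 CPM, 4.15-fold higher (3.59 to 4.78).

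Over all 8 cells the primitive and visceral endoderm list was 6.78-fold higher (6.47 to 7.11) than in the other cells of the same libraries, but the value rested on few cells. Without library 4 it was 2.27-fold, without library 3 it was 21.5-fold, and with Apoe left out of the list it was 22.9-fold. Of the 10 genes of this list with at least 20 counts, 9 were at least 2-fold higher, where 24.1% of all genes with such counts were. The exception was Apoe at 0.399, a gene that stem cells also express. The limit of 20 counts was set in the 8 cells themselves. Genes scarce elsewhere, such as Srgn and Foxq1, passed it only by being high there, so the 9 of 10 is a description and no separate support. Srgn had 91 counts in 4 of the 8 cells and was 3826-fold higher (3080 to 4698), with Col4a2 at 90.9-fold, Col4a1 at 88.6-fold and Lama1 at 52.3-fold. The trophoblast list was 3.97-fold higher (3.25 to 4.80) in the 8 cells, and 73 of its 106 counts were of Krt7 in 3 cells (55.0-fold). Without library 3 it was at 0.764. Of the definitive endoderm and streak list only Trh was seen, with 4 counts, or 0.0959 of its level elsewhere. The other 9 genes had 0 counts where 2.81 were predicted, so their level was not measurable at this depth. The lead in fold was taken by Glipr1, the protease Ctsh, Srgn, Ankrd1, the prostaglandin transporter Slco2a1, Procr, Fxyd3, Hs3st1, the forkhead factor Foxq1 and Tmem163.

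**Figure D3:**
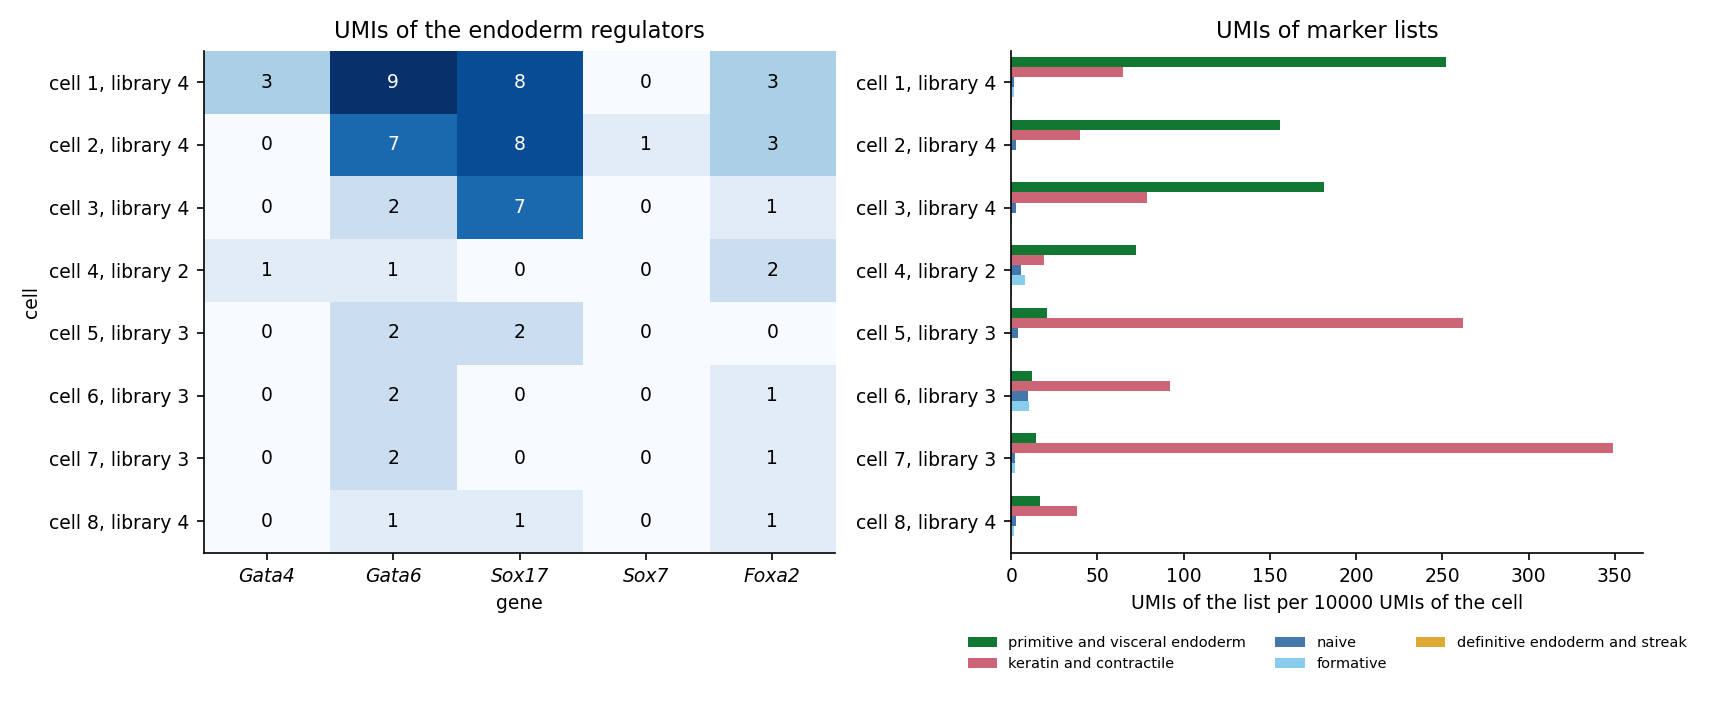
Left, UMIs of the 5 endoderm regulators in each of the 8 cells that gather them. Right, UMIs of 5 marker lists per 10000 UMIs of the same cells, where the 3 leading cells of library 4 and the library 2 cell carry the primitive and visceral endoderm list and the other cells mainly the keratin and contractile list.

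**Figure D4:**
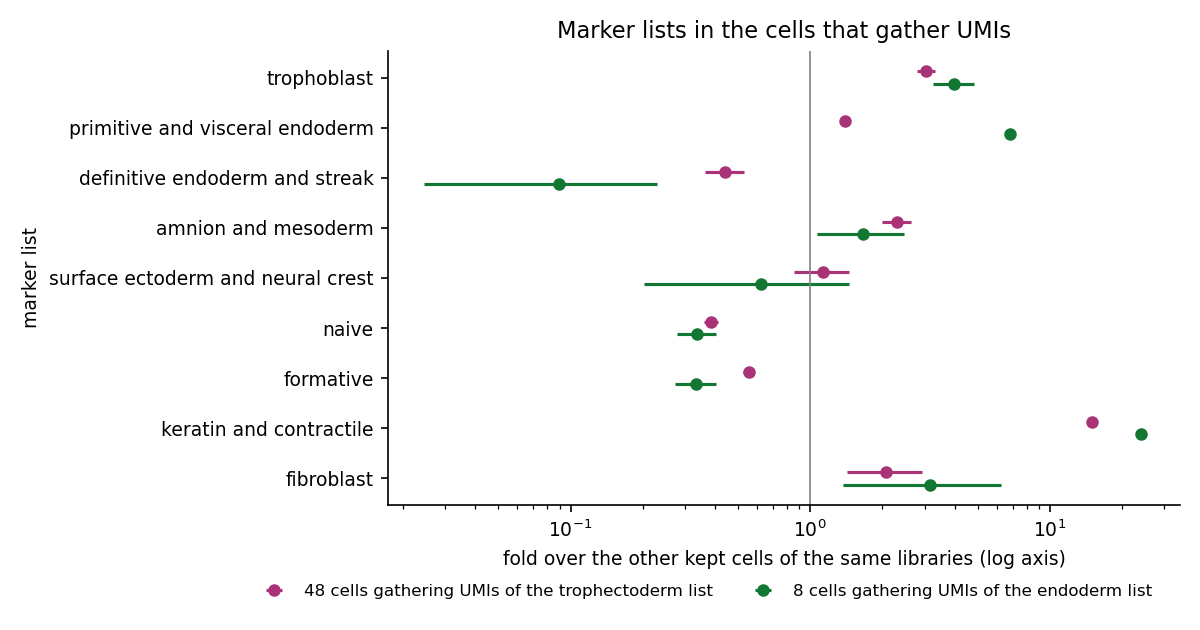
Fold of marker lists that hold none of the 10 regulators in the 48 cells that gather the trophectoderm list and the 8 that gather the endoderm list, over the other kept cells of the same libraries (log axis, exact 95% intervals). Keratin and contractile genes lie furthest to the right in both, at 15.0 and 23.9, and the naive list lies at 0.386 and 0.336. The streak list lies to the left in both through Trh, and without Trh it would lie at 3.62 in the 48 cells. The surface ectoderm and neural crest list lies at 1.13 in the 48 cells, and without Foxd3 it would lie at 5.22.

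Most of the gathering cells were rich in keratins. Cells were divided without the use of any regulator. Keratin-high cells had Krt8 and Krt18 at 10 or more per 10000 UMIs. Of the others, formative cells had the formative list, with Utf1 left out, above the naive list. Naive cells were the rest. These classes are ranges of a score and not cell types, with 291 cells within 1.5-fold of the keratin limit and 1984 within 1.5-fold of the formative limit. Keratin-high cells numbered 45, 22, 523 and 149 in libraries 1 to 4, 739 in all, and held 3.04% of UMIs. They included 37 of the 48 cells that gather the trophectoderm list and all 8 that gather the endoderm list. Their median depth of 22277 to 26211 UMIs compared with 18236 to 21877 in naive cells, and the levels below are per 1000000 UMIs of a class.

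Gata3 was the regulator that marked keratin-high cells most evenly. It stood at 15.1, 19.6, 15.9 and 23.3 CPM in the keratin-high cells of libraries 1 to 4 and at 0.101, 0.277, 0.586 and 0.418 CPM in the naive cells, without overlap in any library. Against the naive level of the same libraries the fold was 33.6 (30.3 to 37.2), and 55.7% of all Gata3 UMIs lay in this class. Within keratin-high cells the 4 libraries overlapped in Gata3, apart from library 4 against library 3, whereas the number of such cells ran from 22 to 523. A Gata3 UMI was seen in 31.1%, 27.3%, 31.2% and 35.6% of keratin-high cells against 0.180% to 1.06% of naive cells.

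Hand1 and Cdx2 had 56.3% and 28.0% of their UMIs in keratin-high cells. Hand1 stood at 10.7, 3.40 and 10.7 CPM in the keratin-high cells of libraries 2, 3 and 4, a fold of 29.9 (24.4 to 36.2) over naive cells. It had 0 counts in the keratin-high cells of library 1, which at a limit of 3 counts allows up to 2.16 CPM. Without the 5 keratin-high cells with at least 5 UMIs of Hand1, which held 31 counts, the fold was 21.2 (16.6 to 26.7). Cdx2 stood at 1.09 and 5.82 CPM in libraries 3 and 4, a fold of 21.7 (15.6 to 29.3). Without 1 cell of library 4 that held 10 of its counts, the fold was 16.6 (11.4 to 23.4) and library 4 stood at 3.45 CPM. Tfap2a was 4.42-fold higher (3.58 to 5.39), without overlap of intervals in libraries 2, 3 and 4 and from only 3 counts in library 1, yet only 12.4% of its UMIs lay in the class, and 544 of its 781 counts were in naive cells. Elf5 had 0 counts in keratin-high cells, where its naive level predicted 0.388, so its level there was not measurable at this depth.

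Of the endoderm regulators, Sox17 and Gata6 were the ones concentrated in keratin-high cells. Sox17 had 62 and 24 counts there in libraries 3 and 4, or 3.98 and 5.82 CPM, and 0 in the 45 and 22 cells of libraries 1 and 2. Over the naive level this was 112-fold (89.2 to 138), the largest value of the 10, and 66.2% of Sox17 UMIs lay in 2.31% of cells. The naive level in libraries 3 and 4 rested on only 5 and 1 Sox17 counts. The intervals of these folds take it as fixed, so they understate the counting error. Few cells carried this value, since 7 keratin-high cells with at least 5 UMIs of Sox17 held 57 of the 86 counts, 23 of them in 3 cells of library 4. Without those cells the fold was 37.9 (25.4 to 54.4), and library 4 was left with 1 count. Gata6 was 21.4-fold higher (17.0 to 26.6), with 8.90, 3.21 and 6.07 CPM in the keratin-high cells of libraries 2, 3 and 4, each without overlap with the naive level. Library 1 had 1 count (0.719 CPM, 0.0182 to 4.00), whose interval included the naive level of 0.208 CPM. Foxa2 was 11.4-fold higher (7.08 to 17.5) from 21 counts and Gata4 2.36-fold (1.29 to 3.95) from 14. Sox7, with 4 counts and a fold of 1.21 (0.330 to 3.10), did not differ beyond counting error.

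In all, 8 of the 9 members with at least 50 counts were at least 2-fold higher in keratin-high than in naive cells, as were 20.6% of all genes with such counts. When the gathering cells were left out, 7 of the 9 were. Sox17 reached the limit of 50 counts only through keratin-high cells, which held 86 of its 130 counts. The limit counts the cells of every class, so these numbers are descriptions and no separate support.

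**Figure D5:**
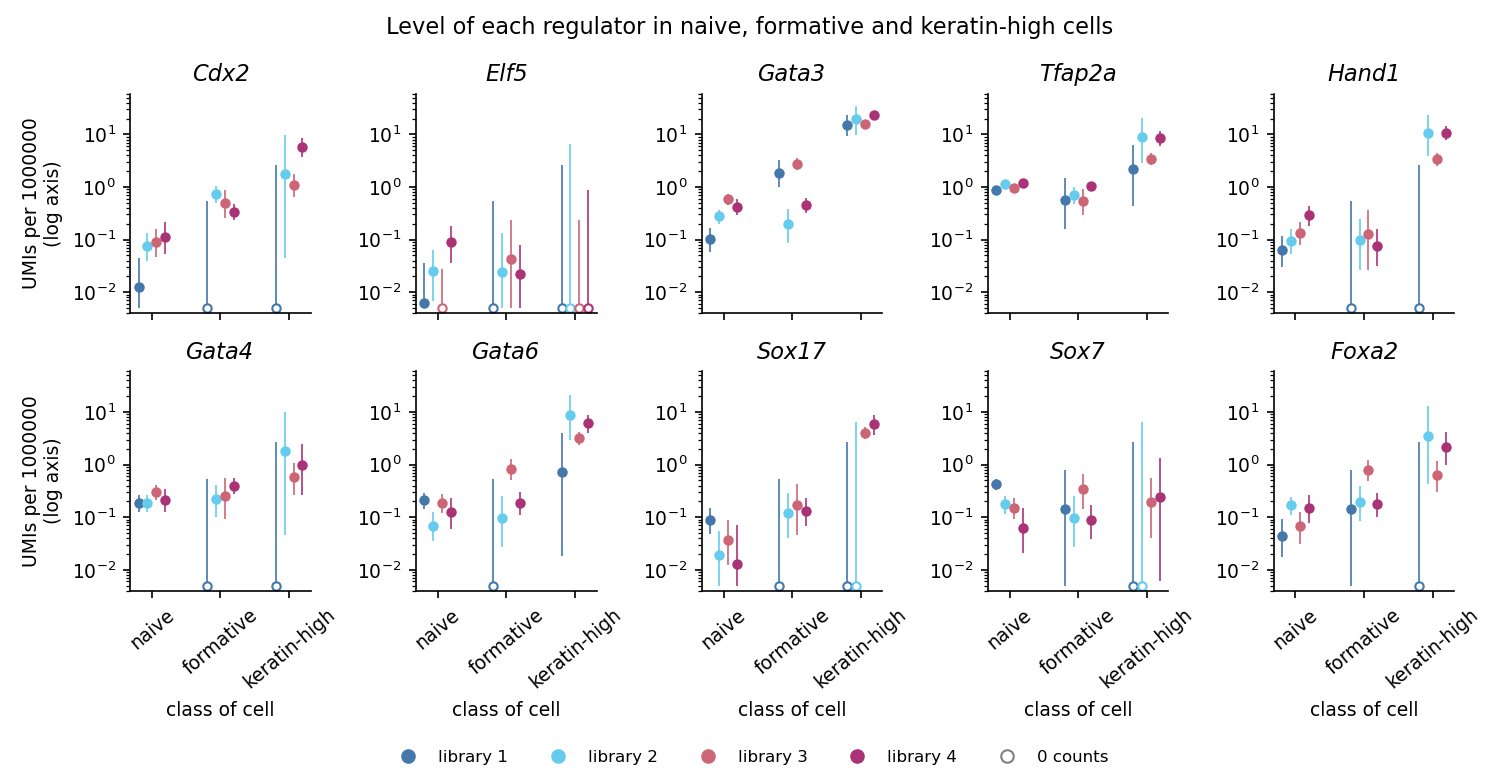
Level of each regulator (UMIs per 1000000 UMIs of the class, log axis) in naive, formative and keratin-high cells of libraries 1 to 4, with exact 95% Poisson intervals cut at the lower edge of the axis. Open points mark 0 counts and are drawn at the lower edge, Gata3 is higher in keratin-high than in naive cells of every library, and Sox7 and Tfap2a stay close to their naive level in formative cells.

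The formative cells differed less from the naive cells. Cdx2 was 4.65-fold higher (3.65 to 5.85) than in naive cells, with 0.734, 0.505 and 0.341 CPM in libraries 2, 3 and 4 and 0 counts in the 276 formative cells of library 1. Of its 73 formative counts, 24 lay in 2 cells, and without these the fold was 3.12 (2.31 to 4.13) and library 2 stood at 0.416 CPM. Sox17 was 6.13-fold (3.79 to 9.36), Gata6 2.02-fold and Gata3 1.99-fold higher. The Sox17 fold rested on 5, 4 and 12 formative counts against 3, 5 and 1 naive counts in libraries 2, 3 and 4. In each of these libraries the Sox17 intervals of the 2 classes overlapped, and library 1 had 0 formative counts. Gata3 stood at 1.88 and 2.74 CPM in the formative cells of libraries 1 and 3, against 0.101 and 0.586 in naive cells. In libraries 2 and 4 it stood at 0.196 and 0.451 against 0.277 and 0.418 CPM. Gata6 was above the naive interval only in library 3 (0.842 against 0.188 CPM), with overlap in libraries 2 and 4 and 0 counts in library 1. Foxa2 was 1.94-fold higher (1.41 to 2.60), but 20 of its 44 formative counts lay in 2 cells, and without these its fold was 1.06 (0.678 to 1.57). Tfap2a was at 0.765 (0.643 to 0.902) and Hand1 at 0.412 (0.225 to 0.691) of the naive level. Hand1 lay below the naive interval only in library 4 (0.0770 against 0.291 CPM). It stood at 0.0979 against 0.0945 CPM in library 2 and 0.126 against 0.135 CPM in library 3, with 0 formative counts in library 1. Sox7 (1.08, 0.666 to 1.65) did not differ beyond counting error between formative and naive cells, and Gata4 was 1.43-fold higher (1.06 to 1.88). For Gata4, 36 of the 51 formative counts lay in library 4 (0.396 against 0.215 CPM), and library 3 stood lower (0.252 against 0.301 CPM). Its formative and naive intervals overlapped in every library.

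Single cells with at least 5 UMIs of 1 regulator, chosen after their values were seen, showed that the same gene stood in unlike surroundings. The Cdx2 maximum was a formative-class cell of library 2 with 13 UMIs of Cdx2 and none of the other 9 genes. It had 12 UMIs of Hoxc8 and 6 each of Hoxa9, Hoxc9 and Hoxc10, which are posterior patterning genes, and 5 of Hoxb2. The rest of library 2 had 5 counts of Hoxc8, 1 of Hoxa9 and 0 of Hoxb2. A library 4 cell with 11 UMIs of Cdx2 had 16 of Fgf8, 7 of Msx1 and 5 of T, all genes of the primitive streak and tail, and only 2 UMIs of Krt8 and Krt18. The third, with 10 of Cdx2 and 7 of Hand1, had 185 UMIs of Krt8 and Krt18 beside 12 of T and 14 of Fgf8.

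The Foxa2 maximum was a formative-class cell of library 3 with 14 UMIs of Foxa2 and none of Gata4, Gata6, Sox17 or Sox7. It had 43 UMIs of Fgf8, 13 of Gsc, the organizer homeobox gene, 10 of Cyp26a1, 7 of Wnt5a and 6 of Eomes. A library 4 cell with 6 of Foxa2 had 22 of Fgf8 and 15 of the Nodal target Lefty2. These 2 cells held 20 of the 120 Foxa2 counts.

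Sox17 had 7 such cells, all keratin-high, and they split in the same manner. The 3 of library 4 were the leading cells that gather the endoderm list, described above, with 2 to 9 UMIs of Gata6 each. The 4 of library 3 had 11, 9, 8 and 6 UMIs of Sox17 and no UMI of any other endoderm regulator, with 51 to 104 UMIs of the primitive and visceral endoderm list and 265 to 995 of the keratin and contractile list. Those 7 cells held 43.8% of all Sox17 UMIs. The 7 such cells of Gata3 were keratin-high in libraries 3 and 4, with 169 to 1062 UMIs of Krt8 and Krt18. Of the 5 Hand1 cells, 1 in library 3, at 0.939 times the library median depth, had 5 UMIs of the placental gene Plac1. No other gene of the trophoblast list was seen in that cell. Another in library 3, at 0.710 times the median, had the placental genes Esx1 (7 UMIs), Rhox6 (21) and Rhox9 (19). It had 23 UMIs of the trophoblast list.

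Genes were ranked for each regulator by fold between cells with and without a UMI of it. Only genes higher in the cells with a UMI in every library with enough such cells were ranked. The genes leading this ranking followed the same division. With Gata3 these were Tnfsf15, Gm28502, Ctla2a, Sprr1a and Mal, 13.4-fold to 31.2-fold within libraries over 503 cells. With Hand1 they were Fhl2, Ankrd1, Mal, Krt18 and Krt8 (13.4-fold to 16.5-fold, 127 cells), and with Cdx2 they included Il24, Fgf8, 3830417A13Rik and Ccl20 (14.5-fold to 24.5-fold, 98 cells). Tfap2a had Ccl20, Cxcl10, H2-M2, Krt18 and Fgf8 at lower folds of 5.15 to 7.26 over 735 cells. The share of counts from 1 cell reached 36.8% for Ctla2a with Gata3, 36.7% for Ccl20 with Cdx2 and 30.3% for Fgf8 with Tfap2a.

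Sox17 was accompanied by Col4a1 (16.3-fold), Crim1, Anxa2, Phldb2 and Efna5, and 29.1% of the Col4a1 counts came from 1 cell. Gata6 was accompanied by Ccl17, Ctla2b, Ctla2a, Hs3st1 and Prrx1 (18.1-fold to 34.5-fold, 166 cells). Foxa2 was led by Clu (18.2-fold), with 52.6% of its counts in 1 cell, and by Fst (48.2% in 1 cell), Ccn1, Akap5 and Gpx3. For the scattered genes the folds were 3.08 to 10.8 with Gata4 (Slco2a1, Flt1, Krt7, Gsn and Flrt3) and 2.02 to 3.45 with Sox7 (Col4a2, Cdon, Plet1, Ttc8 and Tnfsf12). With Gata4, 1 cell held 59.1% of the Slco2a1, 52.9% of the Krt7 and 40% of the Flt1 counts. With Sox7, 1 cell held 43.2% of the Col4a2 counts. Elf5, with 16 cells, was accompanied by Rhox6, Capg, Calml4 and Plekhg5 at 2.57-fold to 4.62-fold. With Elf5, 1 cell held 48% of the Calml4 and 1 cell 40% of the Rhox6 counts. All these folds compare cells that differ in depth, since a deep cell is more likely to show a UMI of any gene. Only genes with at least 20 counts in the cells with a UMI were ranked, so these lists are descriptions and no separate support. The further demand for a higher level in every library with enough such cells could leave out genes concentrated in 1 library.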

How the data were processed

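Single-cell transcriptomes were captured with the 10x Genomics 3′ kit. The deposited matrix holds raw UMI counts per gene and barcode, which the authors produced with Cell Ranger 6.1.2 on mm10 and joined with its aggregation step at default settings, a step that subsamples reads so that libraries have similar depth. The authors' cell filter had not been applied to the file.

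Cells were kept per library when UMIs and detected genes were at or above the mean minus 1 SD and the mitochondrial share was at most 10%. Kept cells of libraries 1 to 4 held 166839268, 200180473, 172407338 and 174050451 UMIs. Levels were expressed per 1000000 UMIs with exact Poisson 95% intervals, shares with exact binomial intervals and ratios of libraries with exact conditional binomial intervals (Python 3.11.15, numpy 2.4.6, scipy 1.17.1, pandas 2.3.3). Folds of chosen cells compare their counts with those predicted from the other cells of the same libraries, and their interval takes the prediction as fixed. For ranges between libraries over all genes, counts under 3 were set to 3. Thinning drew 5000 UMIs per cell and left out no cell. No doublet caller was applied.

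The edgeR test of Srrm2 hKO against WT that had been planned on summed counts was not run, because library numbers are not tied to samples. Cells were not used as replicates, and no p-value was computed. The 10 genes, the marker lists and the classes were chosen with earlier results of these data known. Eomes is in both the trophoblast and the streak list. Other genes named in the text are the 10 with the largest pooled fold in gathering cells (at least 20 counts) and genes of the lists. Also named are the 5 with the largest fold in cells with a UMI of a regulator. These needed at least 20 counts and a higher level in every library with at least 5 such cells. Genes of single cells were chosen after their values were seen. Alternatives are given under the dependence on processing. Values of a few genes picked by these rules are not reported here.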

Additional observations from a re-analysis of the deposited data

Results flagged for a closer look

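The cell filter removed 9153 barcodes with 30825252 UMIs, which entered no comparison above. Of the 10 regulators, 5 had more counts in them than the 3 that a count of 0 allows. They were Tfap2a with 34 counts in 34 barcodes (1.10 CPM, against 1.09 CPM in kept cells), Gata3 with 12 counts in 12 barcodes (0.389 against 0.943 CPM), Gata4 with 7 in 7 (0.227 against 0.255 CPM), Sox7 with 7 in 6 (0.227 against 0.205 CPM) and Sox17 with 5 in 5 (0.162 against 0.182 CPM). The 3 genes seen mostly as single UMIs in kept cells, Tfap2a, Gata4 and Sox7, stood at 0.890 to 1.11 times their kept level. Of the genes concentrated in few kept cells, Sox17 also stood at 0.890 times and Gata3 at 0.413 times.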

How the results depend on the processing

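The 10 ratios between the highest and the lowest library were recomputed 49 times, with all barcodes, with filter limits on log10 values, without cells over 2 times the median UMIs, with size factors and without the top cell of each gene. No ratio reversed, 48 stayed within the counting interval, and Gata3 moved from 7.55 to 10.4 without the deep cells. The number of members past 2-fold between libraries ran from 5 without library 1 to 7 when a library was left out, against 7, and past 2-fold in keratin-high over naive cells from 7 without library 4 to 8, against 8.

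Cells with a UMI of any of the 10 genes fell from 1901 to 941 at 10000 UMIs per cell and to 478 at 5000, so detection is limited by depth. With a limit of 2 UMIs in place of 3, 91 cells gathered the trophectoderm list and 20 the endoderm list, and with 5 UMIs 12 and 3 did. In cells gathering the trophectoderm list, the keratin and contractile fold was 13.9 at 2 UMIs, 21.1 at 5, 19.2 without deep cells, 15.4 over all barcodes, 16.6 without Tagln and 12.7 (without library 4) to 24.3 (without library 3) when a library was left out. The trophoblast fold there was 3.57 at 5 UMIs and 2.42 to 3.76 when a library was left out. In cells gathering the endoderm list, the primitive and visceral endoderm fold was 3.41 at 2 UMIs, 36.9 at 5, 13.6 without deep cells, 22.9 without Apoe, and 2.27 without library 4 to 21.5 without library 3. The trophoblast fold there turned from 3.97 to 0.552 at 5 UMIs and ran from 0.764 without library 3 to 5.93 without library 4. In cells gathering the trophectoderm list, the streak fold turned from 0.441 to 3.62 without Trh. The alternatives without the most abundant gene of a list, without cells with at least 5 UMIs of a gene, without shared barcodes, without gathering cells, and with libraries or deep cells left out of the classes were chosen after seeing the data.

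No paired analysis was possible because the library numbers are not tied to the labelled samples. For the same reason the edgeR test, its DESeq2 and filter alternatives and the leaving out of labelled replicates were not run.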
